A study of Mus musculus with 60 samples.

Results

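The regions described here are constitutive distal enhancers of the mouse dorsal root ganglion: 2040 stretches of open chromatin that lay away from gene ends and held an H3K27ac peak after each of 4 surgeries. They were chosen by their peaks. The 4 ATAC-seq lists were merged into 368411 regions, of which 36917 (10.0%) held a peak of all 4 lists. Of those, 19539 lay more than 5 kb from every end of the 21887 protein-coding genes and are called distal open sites below. Among them, 2040 (10.4%) also overlapped a peak in all 4 H3K27ac lists and are the members. Open chromatin, H3K27ac and distance therefore define the members, and their presence is not a result.

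The tissue was the L4 to L6 ganglia, whose sensory axons run in the sciatic nerve, of C57BL/6 mice aged 6 to 8 weeks, and it was taken 24 hours after surgery. The 4 surgeries were axotomy of the sciatic nerve (SNA), the sham operation for it (Sham), axotomy of the spinal dorsal columns (DCA) and the laminectomy that is its control (Lam). The labels name no allele or transgene. The data are 16 peak lists, 1 for each of ATAC, H3K27ac, H3K9ac and H3K27me3 under each surgery, and each list pools its replicates: 2 ChIP samples of 10 mice each, or 3 ATAC samples of 1 mouse each. A pooled list has no replicate error, so no difference between surgeries was tested, and the 95% Wilson intervals below cover counting error only. The depth of the libraries is unknown. The lists differ in length, from 43803 to 75824 peaks for H3K27ac, from 50332 to 89647 for H3K9ac and from 153556 to 174605 for ATAC, and a longer list can reach more regions. In whole ganglia, fewer cells with a mark and less mark per cell cannot be told apart.

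Enhancers are stretches of DNA that bind transcription factors and raise the transcription of a gene that may lie far away. Active ones lose nucleosomes, which opens them to the ATAC transposase, and the nucleosomes beside them carry acetyl groups on histone H3, at lysine 27 and at lysine 9. Active promoters carry both marks too, so acetylation alone does not tell an enhancer from a promoter. H3K27me3, laid down by a Polycomb complex, occupies the same lysine as H3K27ac and marks silenced chromatin.

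The distance rule used the outer ends of protein-coding genes, so a member can still hold a start site inside a gene or that of a long noncoding RNA (lncRNA). An annotated RefSeq start lay in 447 members (21.9%, interval 20.2 to 23.8%), a protein-coding start in 290 and an lncRNA start in 188, with both kinds in 31. Among all distal open sites the share was 6.17%, and it was 2.64% among those with no H3K27ac and 9.78% among those with H3K27ac in 1 to 3 lists. The label "enhancer" therefore covers a group of inner and noncoding promoters, and the other 1593 members held no start of the table. The 300-base windows around 4 of the starts, from 250 bases before to 50 after each, show the range of these inner promoters, in RefSeq sequence of GRCm38.p6. The lncRNA D730003I15Rik starts in the member nearest to Atf3, the gene of an injury-induced transcription factor, and its window is chr1:191224204-191224503 on the plus strand. Zeb2, the gene of a transcription factor of neural crest and glia, has an inner start with the window chr2:45110228-45110527 on the minus strand. Egfl7, which encodes a protein secreted by endothelial cells, has one with the window chr2:26586386-26586685 on the plus strand. Zmynd8, the gene of a chromatin reader protein, has one with the window chr2:165884789-165885088 on the minus strand, in the member with the second highest H3K27ac rank. Capitals mark the GC box (GGGCGG), bound by Sp1-family factors, and the AP-1 motif (TGANTCA), bound by Fos and Jun dimers, each searched on both strands.
D730003I15Rik: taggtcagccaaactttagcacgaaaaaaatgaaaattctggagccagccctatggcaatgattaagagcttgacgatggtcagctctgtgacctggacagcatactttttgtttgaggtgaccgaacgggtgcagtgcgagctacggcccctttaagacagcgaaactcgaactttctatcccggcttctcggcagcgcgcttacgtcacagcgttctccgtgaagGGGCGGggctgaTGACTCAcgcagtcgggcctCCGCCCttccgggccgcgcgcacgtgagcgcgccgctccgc
Zeb2: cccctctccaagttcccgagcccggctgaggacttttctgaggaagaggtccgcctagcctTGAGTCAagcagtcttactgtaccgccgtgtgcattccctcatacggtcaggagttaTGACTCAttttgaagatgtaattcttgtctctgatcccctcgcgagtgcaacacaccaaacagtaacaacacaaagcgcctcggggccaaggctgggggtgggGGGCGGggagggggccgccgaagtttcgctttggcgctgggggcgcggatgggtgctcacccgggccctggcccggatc
Egfl7: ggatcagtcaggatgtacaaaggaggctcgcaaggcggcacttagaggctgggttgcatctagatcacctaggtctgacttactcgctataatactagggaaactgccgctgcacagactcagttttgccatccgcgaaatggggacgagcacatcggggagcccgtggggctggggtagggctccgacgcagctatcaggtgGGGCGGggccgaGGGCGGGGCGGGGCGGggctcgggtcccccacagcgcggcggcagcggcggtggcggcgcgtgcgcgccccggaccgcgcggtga
Zmynd8: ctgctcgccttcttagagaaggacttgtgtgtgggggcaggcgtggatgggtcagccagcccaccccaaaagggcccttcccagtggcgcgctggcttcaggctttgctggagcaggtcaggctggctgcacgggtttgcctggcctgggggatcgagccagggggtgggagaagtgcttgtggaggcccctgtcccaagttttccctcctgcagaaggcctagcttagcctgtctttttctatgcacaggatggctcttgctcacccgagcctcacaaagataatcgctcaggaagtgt

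The window of D730003I15Rik held 2 GC boxes and 1 AP-1 match, and that of Zeb2 held 1 GC box and 2 AP-1 matches. The Egfl7 window held 4 GC boxes and no AP-1 match, and the Zmynd8 window held neither motif. G and C made up 57.7% of the D730003I15Rik window and 67.3% of the Egfl7 window. Over the 347 protein-coding windows that start in a member, 64.0% held a GC box, against 45.9% of the 20883 other protein-coding windows. For the 224 lncRNA windows in members the share was 44.2%, against 15.8% of 11363 others. GC boxes were thus more frequent at the starts inside members for both kinds of gene, and the windows in members were also richer in G and C, with a median of 60.3% against 52.7% for all 32817 windows. The AP-1 motif was found in 7.01% of the 571 windows in members and in 7.81% of all windows, and a TATA box (TATAAA, both strands) in 5.08% and 13.6%. By kind of gene the AP-1 shares went opposite ways. They were 7.49% in members against 6.99% of others for protein-coding windows, and 6.25% against 9.37% for lncRNA windows. No motif searched shares letters with another, apart from neighbouring GC boxes, and a match describes letters, not binding.

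Most members lay within genes. Of the 2040, 1271 were inside a protein-coding gene (62.3%, interval 60.2 to 64.4%) and 769 were between genes. Among all distal open sites 56.9% were inside a gene, and 53.7% of those with no H3K27ac. For the sites with H3K27ac in 1 to 3 lists the share was 64.4% (interval 62.9 to 65.9%), so it was not particular to members. The gene table has no exons, so exon and intron were not assigned. The median distance to the nearest gene end was 20403 bp for members, with quartiles of 10567 and 45119 bp. It was 34934 bp for the distal open sites without H3K27ac and 23935 bp for those with H3K27ac in 1 to 3 lists. At 452 members (22.2%) that distance exceeded 50 kb, against 41.3% of the sites without H3K27ac and 26.4% of those with it in 1 to 3 lists. Beyond the limit that the rule set, members thus lay closer to gene ends than the sites without H3K27ac. The sites with it in 1 to 3 lists stood between, nearer to the members. The farthest member, at chr2:46443135-46444131, was 1325.69 kb from any gene end and had Zeb2 as its nearest gene. Members were 1154.5 bp wide in the median (range 312 to 3885 bp), the sites without H3K27ac 973 bp and those with it in 1 to 3 lists 1018 bp. Chromosome X held 5 members, and only 686 of the merged ATAC regions.

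The regions nearest to the 5 kb limit show what the rule separated. Just inside it, at 5.002 kb, a member beside Tbc1d31 had H3K27ac folds of 6.89 (Sham), 5.74 (SNA), 5.47 (Lam) and 5.75 (DCA). Values of the 4 lists without a label are in this order throughout. Here and below, fold is the authors' ratio of a peak over its local background, and an order of folds across lists describes the deposited values and was not tested, since each list was made on its own. At members the H3K27ac folds reached at most 16.2 in the SNA list, against 41.2 (Sham), 32.5 (Lam) and 40.01 (DCA). Just outside, at 4.998 kb, a region beside Ucp3 had 4.602, 4.75, 5.40 and 3.11. Values differed within the inner side: the member beside Ptch1 had 10.2, 4.02, 16.3 and 11.9, with H3K9ac in SNA and DCA alone. The next regions were members beside Stim1 (5.01 kb) and Ptch1 (5.01 kb) on the inner side and regions beside Plekha1 (4.99 kb) and Mfsd2a (4.98 kb) on the outer side.

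H3K9ac, which the rule did not use, was present at nearly all members. A peak overlapped 1832 members in the Sham list (89.8%, interval 88.4 to 91.0%) and 1923 in the SNA list (94.3%, 93.2 to 95.2%). It overlapped 1779 members in the Lam list (87.2%, 85.7 to 88.6%) and 2008 in the DCA list (98.4%, 97.8 to 98.9%). Among all distal open sites the shares were 23.2%, 28.3%, 19.9% and 32.2%. For the 13359 distal open sites without H3K27ac they were 3.75%, 6.31%, 2.43% and 8.98%, and for the 4140 with H3K27ac in 1 to 3 lists 53.0%, 66.9%, 43.0% and 74.4%. The 3 kinds of distal site thus stood in the same order in all 4 lists, and the intervals of the members and of each other kind did not overlap in any list. At the 5608 gene-end sites, which lay within 1 kb of a gene end and had ATAC and H3K27ac peaks in all lists, the shares were 93.3%, 94.7%, 95.7% and 99.8%. Lam was therefore below Sham at the members and above it at the gene-end sites. The 1593 members without an annotated start had 89.8%, 94.2%, 85.6% and 98.2%, and the 447 members with one had 89.7%, 94.6%, 93.1% and 99.3%.

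**Figure D1:**
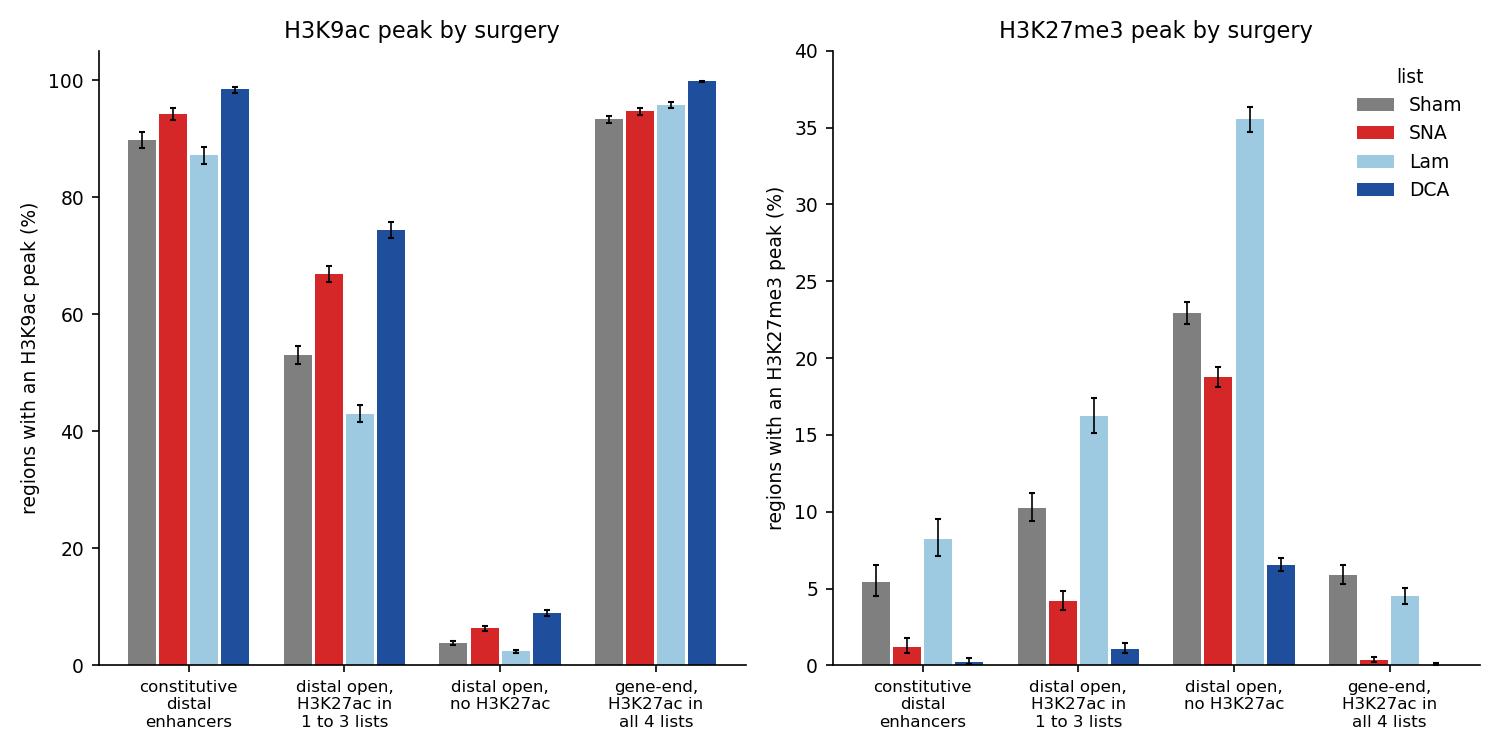
Share of regions with an H3K9ac peak (left) and an H3K27me3 peak (right), in percent, for 4 kinds of region and the list of each surgery; bars are shares and lines 95% Wilson intervals. Members carried H3K9ac at 87.2 to 98.4% and H3K27me3 at 0.196 to 8.24%, and the 2 panels have different vertical scales.

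The order of the surgeries at the members moved with how the lists were made. With the lists of each assay cut to the length of the shortest by −log10 p, 1689 members were left and their H3K9ac shares were 91.2% (Sham), 88.8% (SNA), 90.5% (Lam) and 94.97% (DCA), so SNA was below Sham. With peaks of q at most 0.01 the shares over 1459 members were 65.7%, 85.5%, 79.0% and 98.6%, so Lam was above Sham. DCA was the highest under both. The gap between members and other distal sites held under both settings: without H3K27ac the shares were 6.02%, 5.72%, 3.801% and 5.84% at equal lengths and 0.790%, 3.27%, 1.86% and 11.0% at the stricter q. Leaving out the Sham ATAC and H3K27ac lists from the rule gave 3057 members with 86.0%, 92.7%, 81.8% and 97.1%, and leaving out those of SNA gave 2399 with 83.4%, 88.5%, 81.1% and 94.3%.

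A peak in all 4 H3K9ac lists was found at 1615 members (79.2%, interval 77.4 to 80.9%), and 5 members had none. The next combinations were Sham, SNA and DCA at 158 members and SNA, Lam and DCA at 86, which lack only Lam and only Sham. H3K9ac in both injury lists and in neither control was found at 42 members (2.06%), against 3.06% of all distal open sites. The mirror case, both controls and neither injury, was found at 1 member (0.0490%), against 0.0921%. Each of the 8 largest combinations held DCA.

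**Figure D2:**
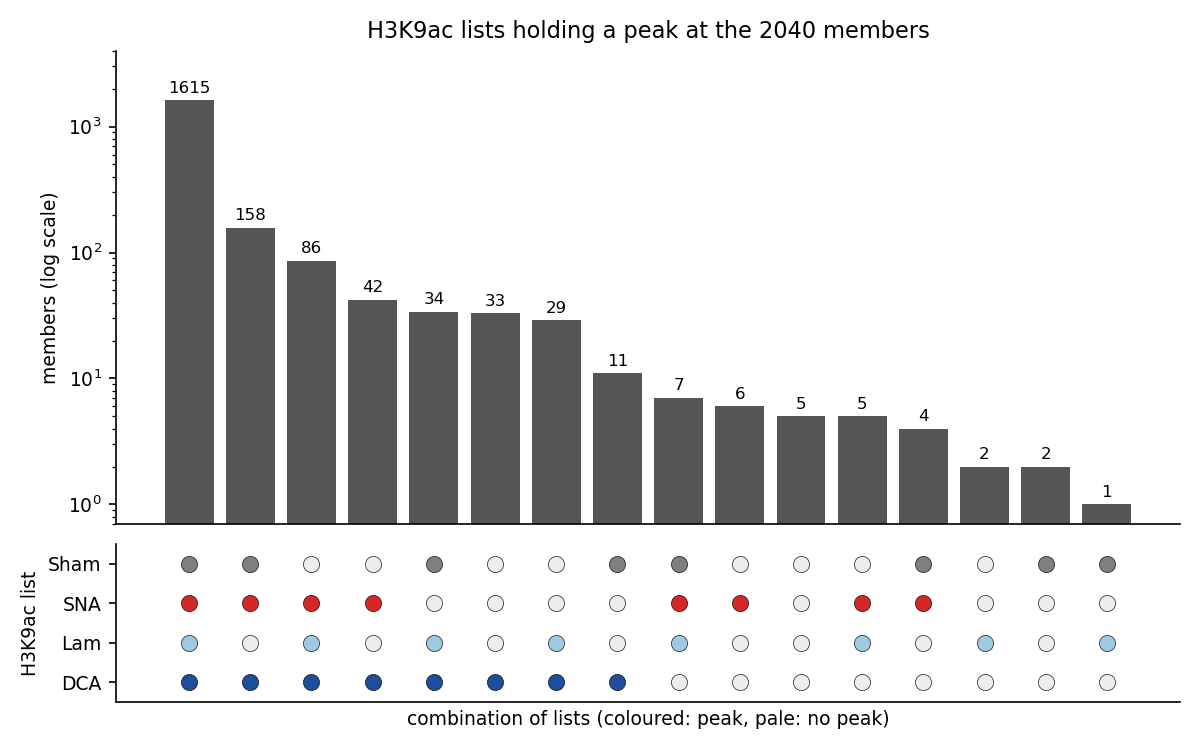
Number of members (log scale) for each combination of H3K9ac lists that held a peak, from 1615 with all 4 to 1 with Sham and Lam; coloured dots mark lists with a peak. The 8 leftmost combinations all include DCA.

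Set by pairs, 139 members (6.81%) had H3K9ac in SNA and not in Sham, and 48 (2.35%) in Sham and not in SNA. Among all distal open sites these shares were 8.05% and 2.9%. Few members could differ, since 208 lacked a Sham peak: of those, 66.8% (interval 60.2 to 72.9%) had one in SNA, against 10.5% of the 15010 distal open sites without a Sham peak. Of the 261 members without a Lam peak, 93.5% had one in DCA, against 17.3%. Many also had a peak in the other control: 58.7% (interval 51.9 to 65.1%) of the 208 in Lam and 67.0% of the 261 in Sham. Among distal open sites these shares were 5.41% and 9.31%. The distal open sites compared include those without H3K27ac in any list. Of the 376 gene-end sites without a Sham peak, 61.4% had one in SNA and 79.8% in Lam. Of the 239 gene-end sites without a Lam peak, 97.9% had one in DCA and 68.2% in Sham. Shares of this size were therefore not particular to members. In DCA and not in Lam there were 244 members (11.96%), and in Lam and not in DCA 15 (0.735%), against 13.8% and 1.53% of all distal open sites. The 2 control lists differed from each other too: 122 members (5.98%) had H3K9ac in Lam and not in Sham and 175 (8.58%) in Sham and not in Lam, against 4.16% and 7.46%. At equal list lengths the sciatic pair turned, with 82 members (4.85%) in SNA and not in Sham and 123 (7.28%) in Sham and not in SNA, against 5.01% and 5.35% of all distal open sites. The spinal pair kept its direction, with 132 (7.82%) in DCA and not in Lam and 57 (3.37%) the other way, close to the 7.65% and 3.93% of all distal open sites.

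The 5 members with the highest H3K9ac −log10 p in SNA and no Sham peak lay nearest to Svil, Ralgds, Serpinb6b, Slc43a2 and Adamts7. The member at Ralgds, which encodes an activator of Ral GTPases, had H3K9ac folds of 6.07 in SNA and 3.22 in DCA and no peak in Sham or Lam. Its H3K27ac folds were 5.63 (Sham), 8.71 (SNA), 8.28 (Lam) and 5.28 (DCA). The member at Serpinb6b, a gene of a protease inhibitor, had H3K9ac folds of 6.17 in SNA and 3.99 in DCA and lacked peaks in both controls too. Both therefore had an H3K9ac peak in each axotomy list and in neither control list. The control lists of H3K9ac are shorter, with 50332 (Sham) and 50667 (Lam) peaks against 74652 (SNA) and 89647 (DCA). Whether the mark itself was absent after the control operations was not tested. The members at Svil, the gene of an actin-binding protein, at Slc43a2, of an amino acid transporter, and at Adamts7, of a metalloprotease, had a peak in SNA, Lam and DCA, with SNA folds of 7.47, 5.95 and 6.05. These 3 lacked only Sham.

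For DCA without Lam the 5 members lay nearest to Rbms3, Otub2, Ston1, Pcca and Oaf, and all 5 had a peak in Sham and SNA as well. The member at Rbms3, the gene of an RNA-binding protein, had H3K9ac folds of 3.32 in Sham, 2.06 in SNA and 7.66 in DCA. At Otub2, the gene of a deubiquitinating enzyme, they were 4.90, 1.61 and 6.50, and at Pcca, of a mitochondrial carboxylase subunit, 4.85, 3.83 and 6.53. The Pcca member had the highest ATAC folds of the 5, at 8.39 (Sham), 11.6 (SNA), 9.23 (Lam) and 7.90 (DCA), and H3K27ac folds of 3.31, 5.30, 2.41 and 3.96. All but the member at Ston1 hold an annotated start. The 5 members without H3K9ac in any list, named after their values were seen, lay nearest to Agap1, Zfp24, Fnbp1, Tbc1d1 and Cmip. At Fnbp1, the gene of a membrane-bending protein, H3K27ac folds were 11.1 (Sham), 3.46 (SNA), 8.72 (Lam) and 10.6 (DCA), and at Zfp24 they were 15.8, 2.998, 14.2 and 14.0, so a high H3K27ac fold did not always come with an H3K9ac peak.

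The strength of H3K9ac at members was high within each list. The median member stood at the rank percentile 79.6 (Sham), 87.4 (SNA), 77.6 (Lam) and 87.1 (DCA) by −log10 p, against 30.4, 40.1, 33.7 and 37.2 for the distal open sites without H3K27ac that had a peak. Sites with H3K27ac in 1 to 3 lists stood between, at 53.4, 63.0, 52.2 and 65.4. Gene-end sites stood above members in every list, at 87.1, 89.8, 87.0 and 94.0, so a high rank was not particular to members. The median fold at members was 4.12, 4.53, 3.46 and 4.51. Members with weaker H3K27ac lacked H3K9ac more often in 2 of the lists. In Lam, H3K9ac was found at 79.2% of the 510 members with the lowest H3K27ac −log10 p and at 91.6% of the 510 with the highest, and in SNA at 88.8% and 97.8%. In Sham the shares were 89.8% and 87.3%, and in DCA 97.6% and 98.6%, with overlapping intervals in both. Peaks can span several members: from 20 members in the Lam list to 69 in the DCA list shared an H3K9ac peak with another member.

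H3K27me3 was rare at members. A peak overlapped 111 members in the Sham list (5.44%, interval 4.54 to 6.51%) and 25 in the SNA list (1.23%, 0.831 to 1.80%). It overlapped 168 in the Lam list (8.24%, 7.12 to 9.51%) and 4 in the DCA list (0.196%, 0.0763 to 0.503%). Among all distal open sites the shares were 18.4%, 13.8%, 28.6% and 4.72% in that order, and among those without H3K27ac 22.9%, 18.8%, 35.5% and 6.53%. Sites with H3K27ac in 1 to 3 lists had 10.3%, 4.18%, 16.2% and 1.09%. Members thus had a lower share than other distal open sites in all 4 lists. Gene-end sites had 5.88%, 0.374%, 4.49% and 0.0535%, which is below members in SNA, Lam and DCA. A low share was therefore not particular to members. Few of these broad peaks were strong: 1613 (Sham), 218 (SNA), 916 (Lam) and 43 (DCA) in the whole genome had q of at most 0.05. They overlapped 1 member in Sham, 1 in Lam and 0 of 2040 in SNA and in DCA, which allows up to 0.188% by the interval, against 0.225%, 0.0205%, 0.169% and 0% of all distal open sites. Lists this short cannot separate members from other sites.

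H3K27ac itself chose the members, and its values are given as a description. Its median fold at members was 4.49 (Sham), 5.36 (SNA), 5.33 (Lam) and 4.79 (DCA), and the ATAC median was 2.42, 2.56, 2.38 and 2.40. The median member stood at the H3K27ac rank percentile 59.5, 87.3, 80.8 and 66.5. The SNA and Lam lists are also the longer, with 75824 and 67311 peaks against 43803 (Sham) and 46489 (DCA), and a peak required in all 4 ranks higher in a longer list by construction. Of the 1354 distal open sites with H3K27ac in 3 lists, 563 lacked only Sham, 527 only DCA, 171 only SNA and 93 only Lam. In every list some members shared an H3K27ac peak, from 48 members in DCA to 66 in Lam. Members with an annotated start had a higher ATAC fold, 3.05 (Sham), 3.32 (SNA), 2.95 (Lam) and 2.99 (DCA) in the median, against 2.33, 2.46, 2.27 and 2.31 for the others.

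The strongest members were ranked by their lowest H3K27ac rank percentile over the 4 lists. The first was a 727 bp region at chr10:59973985-59974711, 12.7 kb from Anapc16, which encodes a subunit of the anaphase-promoting ubiquitin ligase. Its H3K27ac folds were 35.7, 9.78, 29.7 and 32.5, while its ATAC folds were 2.06, 1.99, 1.98 and 2.32. The second lay inside Zmynd8 at chr2:165884475-165885926, with H3K27ac folds of 29.9, 12.1, 17.3 and 28.5, and shared its H3K27ac peak in Sham, Lam and DCA with another of the 12 at chr2:165888298-165888930. The third lay 7.03 kb from Cttnbp2nl, with folds of 36.5, 8.71, 26.8 and 23.7. High H3K27ac did not come with a high ATAC fold at these 3 regions, since their ATAC folds ranged from 1.73 to 2.74.

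Among the other 9 of the 12 were members nearest to Zfp706, Irf2bpl, Magi1, Spen, Zmynd8, Lims2, Slc43a2 and Zfp236. They include a scaffold protein of cell junctions (Magi1), a transcriptional co-repressor (Spen) and an adaptor of focal adhesions (Lims2). The member at Spen had H3K27ac folds of 18.9, 5.03, 29.7 and 11.4. Over the 12 the median H3K27ac fold was 29.9 (Sham), 7.96 (SNA), 19.7 (Lam) and 17.2 (DCA), and the median ATAC fold 2.27, 2.47, 2.24 and 2.20. In each of the 12, SNA had the lowest fold. H3K9ac was present in all 4 lists at 11 of them, the member near Zfp236 lacking only Sham.

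**Figure D3:**
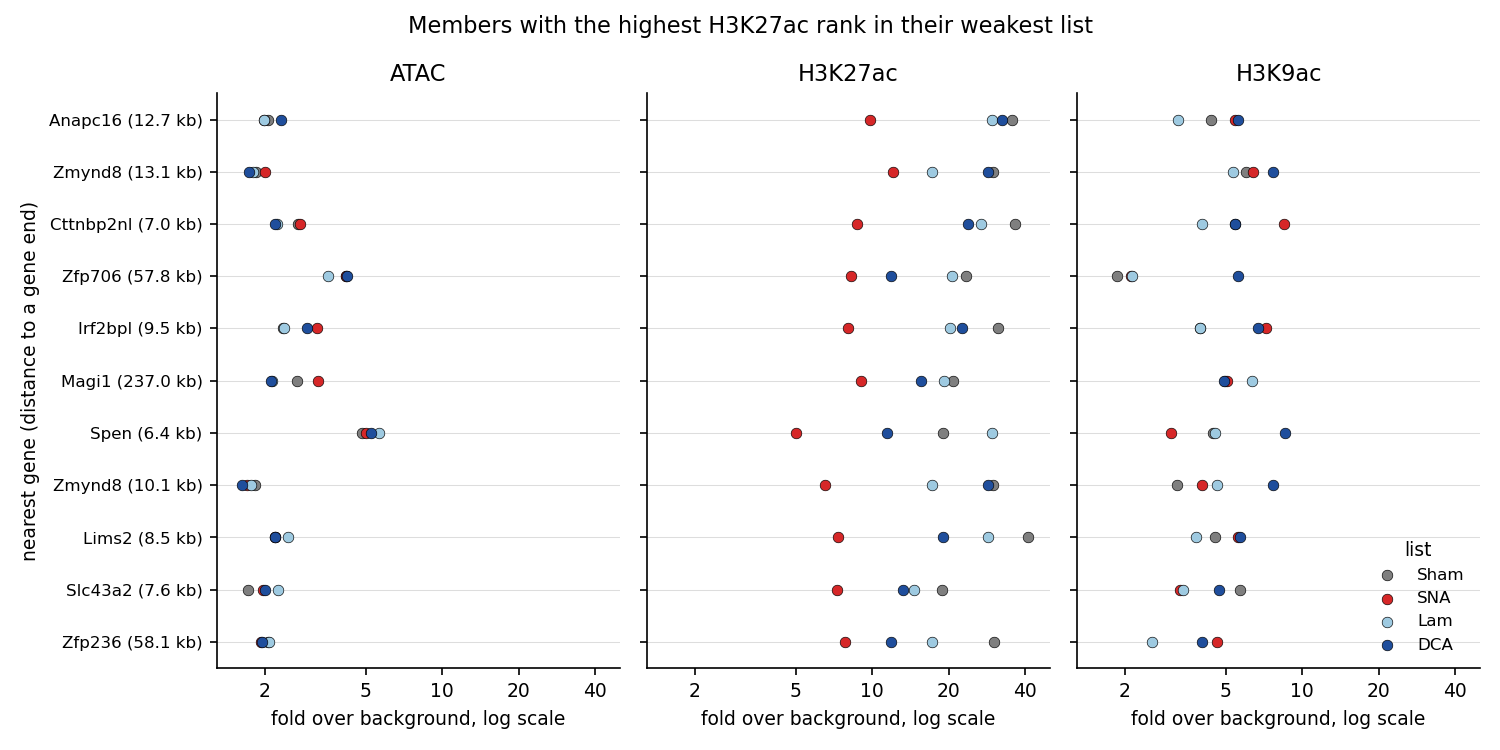
Folds over background (log scale) of 11 of the 12 members with the highest H3K27ac rank in their weakest list, for ATAC, H3K27ac and H3K9ac; each point is 1 pooled list. H3K27ac reaches 41.2 at Lims2 in Sham while no ATAC fold exceeds 5.62, and SNA is the leftmost H3K27ac point in every row.

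That spread was not limited to those 12. A fold over 10, a limit chosen after the values were seen, was reached by 102 (Sham), 41 (SNA), 133 (Lam) and 81 (DCA) members. In Sham, Lam and DCA together it was reached by 61 members, of which 1 also reached it in SNA. Their median H3K27ac fold was 22.3, 5.21, 16.7 and 16.3, whereas the other 1979 members had 4.47, 5.36, 5.23 and 4.78. Their median ATAC folds, 2.36, 2.69, 2.42 and 2.40, were close to the 2.42, 2.56, 2.37 and 2.40 of the others. H3K9ac was present in all 4 lists at 36 of the 61 (59.0%), against 79.2% of all 2040 members. The 61 were picked by the other 3 lists, which itself favours a lower value in SNA, and by rank their median was at the percentile 88.5 in SNA and 99.5 in both Sham and DCA. The 41 members with a fold over 10 in SNA had medians of 5.39, 10.98, 7.69 and 6.25, and 1 of them was over 10 in Sham, 5 in Lam and 3 in DCA. Members picked for a high fold in SNA were therefore lower in the others too, and the part of the SNA list itself was not tested.

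Members clustered. Joined over gaps of up to 12500 bp, 518 members (25.4%, interval 23.6 to 27.3%) fell into 228 clusters, 180 of them pairs, 37 of 3 members, 8 of 4 and 3 of 5. The shares of the other kinds under the same gap were 20.2% and, for the more numerous sites without H3K27ac, 27.2%, so the raw share depends on how dense a set is. The kind of the nearest neighbour is another measure: the nearest distal open site was itself a member for 688 members (33.7%, interval 31.7 to 35.8%), for 18.1% of the sites with H3K27ac in 1 to 3 lists and for 4.83% of those without. Members are 10.4% of distal open sites. For 36.4% of members the nearest site was one with H3K27ac in 1 to 3 lists. The other kinds had a nearest site of their own kind too, at 34.1% of those with H3K27ac in 1 to 3 lists and 79.7% of those without. Those kinds are larger, with 4140 and 13359 of the 19539 distal open sites. Distal open sites were also denser around members, with a median gap to the nearest of 13.0 kb, against 15.5 kb and 25.5 kb for the other kinds. Clustered members had H3K9ac at 90.5%, 94.98%, 90.9% and 99.2%, and single members at 89.6%, 94.0%, 85.9% and 98.2%. Neighbours can share a peak, as given above, and are not independent of each other.

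The 3 largest clusters had 5 members each. One spanned 18.7 kb at chr2:30707706-30726445, and its nearest gene was 1700001O22Rik. H3K27ac folds there ran from 4.92 to 6.31 (Sham), 6.46 to 8.67 (SNA), 5.56 to 10.3 (Lam) and 3.31 to 7.61 (DCA), and 2 of its members had the same H3K27ac fold in each list. The next spanned 12.7 kb at chr8:84191604-84204344 between Nanos3, which encodes an RNA-binding protein of germ cells, and Zswim4, and H3K9ac was present in all 4 lists at each of its 5 members. The remaining one, inside Zmynd8, spanned 33.7 kb and holds both of the strongest Zmynd8 members.

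Clusters of 4 numbered 8. That near Fosb, an AP-1 subunit gene, and Ercc1, a DNA repair gene, spanned 13.9 kb at chr7:19319411-19333292, with H3K27ac folds of 4.02 to 6.38 (Sham), 4.50 to 8.59 (SNA), 4.61 to 10.8 (Lam) and 4.16 to 6.75 (DCA). The cluster between Ddit4, the gene of a stress-induced inhibitor of mTORC1, and Anapc16 spanned 17.6 kb and contains the first-ranked member. Near Tuba1a and Tuba1c, genes of alpha-tubulin, 4 members spanned 24.95 kb at chr15:98968817-98993769. The clusters in Plec, the gene of the cytoskeletal linker plectin, and Vgll4, a cofactor gene of TEAD factors, lay wholly inside the gene, and H3K9ac was present in all lists at each of their members. The other 3 lay near Acot11, near Nr2f2, the gene of a nuclear receptor, and between Ahdc1 and Wasf2, where 2 of the 4 members had H3K9ac in all lists.

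The nearest genes numbered 1422, which is 6.5% of protein-coding genes, and 1025 of them had a single member. They were long, with a median of 52.6 kb against 17.2 kb for all protein-coding genes and 44.1 kb for the 7437 genes nearest to any distal open site. Nearest means by position, and no contact with the gene was measured. The gene with most members was 1700001O22Rik with 9, all outside it, and Tns1, which encodes the focal adhesion protein tensin 1, followed with 7, of which 6 were inside it. In Tns1, H3K9ac was present in all 4 lists at each of the 7, and the member at chr1:74007446-74009389 had H3K27ac folds of 19.3, 7.71, 20.1 and 5.98.

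Acot11, Ahdc1, Mkln1, Prdm16, Septin9 and Wnt7b had 6 members each. Those of Wnt7b, a secreted Wnt ligand, all lay outside the gene, from 17063 to 71534 bp from a gene end, in groups of 3, and H3K9ac was present in all lists at each. Its H3K27ac folds ran from 4.89 to 8.29 (Sham), 4.97 to 9.95 (SNA), 4.43 to 7.24 (Lam) and 3.67 to 9.34 (DCA). Those of Prdm16, a transcription regulator, all lay inside the gene, with folds of 3.16 to 5.11, 4.75 to 8.35, 3.42 to 6.13 and 4.05 to 9.01. Those of Mkln1 all lay outside it, and 4 of the 6 had H3K9ac in all lists. Aopep and Arhgap39, with 5 members each, complete the first 10 in alphabetical order among 16 genes with that number.

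The genes of the ganglion's cell types were looked up in 7 lists of marker genes. Of 30 satellite glia and Schwann cell genes, 8 were the nearest gene of a member (26.7%), with 11 members in all. The count was 5 of 30 for regeneration-associated genes, with 9 members, 2 of 30 for sensory neurons, 2 of 20 for macrophages, 1 of 20 for endothelial and mural cells, 1 of 20 for fibroblasts and perineurial cells and 0 of 20 for hepatocyte genes, which were included as genes foreign to the tissue. With a window of 100 kb on either side, 12 of 30 glial, 9 of 30 regeneration-associated, 8 of 30 neuronal, 4 of 20 macrophage, 3 of 20 endothelial, 1 of 20 fibroblast and 1 of 20 hepatocyte genes had a member, against 22% of all protein-coding genes. The glial list had the largest count under both, and 6.5% and 22% are the shares of all genes beside it. The median gene of each list, as of all genes, had 0 members in that window.

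Among glial genes, Sox10, which encodes the transcription factor that defines the neural crest glial lineage, had 2 members. The one at chr15:79191996-79194051, 27.5 kb from it, had H3K27ac folds of 7.09 (Sham), 8.56 (SNA), 9.07 (Lam) and 6.47 (DCA) and H3K9ac folds of 4.07, 7.22, 4.80 and 4.01. The one 10.7 kb away had H3K27ac folds of 2.95, 5.23, 5.47 and 6.06. Zeb2 had a member over its inner start with H3K27ac folds of 8.89, 8.68, 9.86 and 8.48 and H3K9ac folds of 2.65, 4.07, 4.53 and 8.61.

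Kcnj10, the gene of the potassium channel of satellite glia, had a member in the gene with H3K27ac folds of 5.12, 10.3, 6.38 and 3.11, and H3K9ac in all lists but Lam. Tfap2a, a transcription factor gene of the neural crest, had 2. That at chr13:40730591-40731809 had H3K27ac folds of 11.8, 5.55, 15.0 and 14.0 and H3K9ac in DCA only, and that at chr13:40722642-40723573 had 3.62, 3.30, 5.20 and 5.79 and H3K9ac in all lists. The member near Ednrb, the endothelin receptor B gene, was the weakest named here, with an H3K27ac rank percentile of 0.834 and a fold of 2.00 in SNA. The others were near Glul (glutamine synthetase), Mbp (myelin basic protein) and Sox2.

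Of the 30 regeneration-associated genes, the 5 nearest to a member were Socs3 and the transcription factor genes Atf3, Fos, Jun and Klf4. Others on the list, such as Gap43, Npy and Il6, were the nearest gene of no member. Socs3, which encodes an inhibitor of JAK-STAT signalling, had 4 members between 5.20 and 31.1 kb from it, and the one at chr11:117949032-117950286 had H3K27ac folds of 3.98, 8.38, 7.60 and 6.22. The member over the lncRNA start 40.5 kb from Atf3, whose window is printed above, had H3K27ac folds of 6.28, 6.00, 10.3 and 6.76 and H3K9ac folds of 6.32, 2.58, 3.75 and 5.92. SNA had the lowest H3K27ac fold there. By rank within each list its H3K27ac stood at the percentile 82.8, 97.7, 98.0 and 91.5. The median member stood at 59.5, 87.3, 80.8 and 66.5, and members rank higher in a longer list by construction. The order of these ranks across lists is therefore not read as a result. The member 108.6 kb from Jun had H3K27ac folds of 5.11, 7.49, 6.38 and 4.50, and the member 17.9 kb from Fos had 3.96, 6.11, 5.15 and 5.09. At both of these SNA had the highest fold, and both carried H3K9ac in all lists. Their SNA rank percentiles were 98.6 at Jun and 94.4 at Fos, beside 87.3 for the median member in that list. Klf4 had members at 11.7 and 118.4 kb.

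Among sensory neuron genes, Gfra2, a co-receptor gene for the growth factor neurturin, had a member. It had H3K27ac folds of 3.78, 4.58, 3.25 and 3.83. Macrophage genes were Mrc1, the mannose receptor gene, whose member lacked H3K9ac in DCA only, and Fcgr3, an Fc receptor gene, whose member had H3K27ac folds of 3.08, 7.46, 5.26 and 3.13. The endothelial gene Egfl7, whose inner start is printed above, had H3K27ac folds of 3.48, 3.62, 5.20 and 3.54 and H3K9ac in DCA only, with a fold of 4.62. The fibroblast gene Dcn, for the matrix protein decorin, had a member 165.5 kb away with H3K27ac folds of 5.20, 6.24, 4.80 and 5.36 and H3K9ac in all lists.

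**Figure D4:**
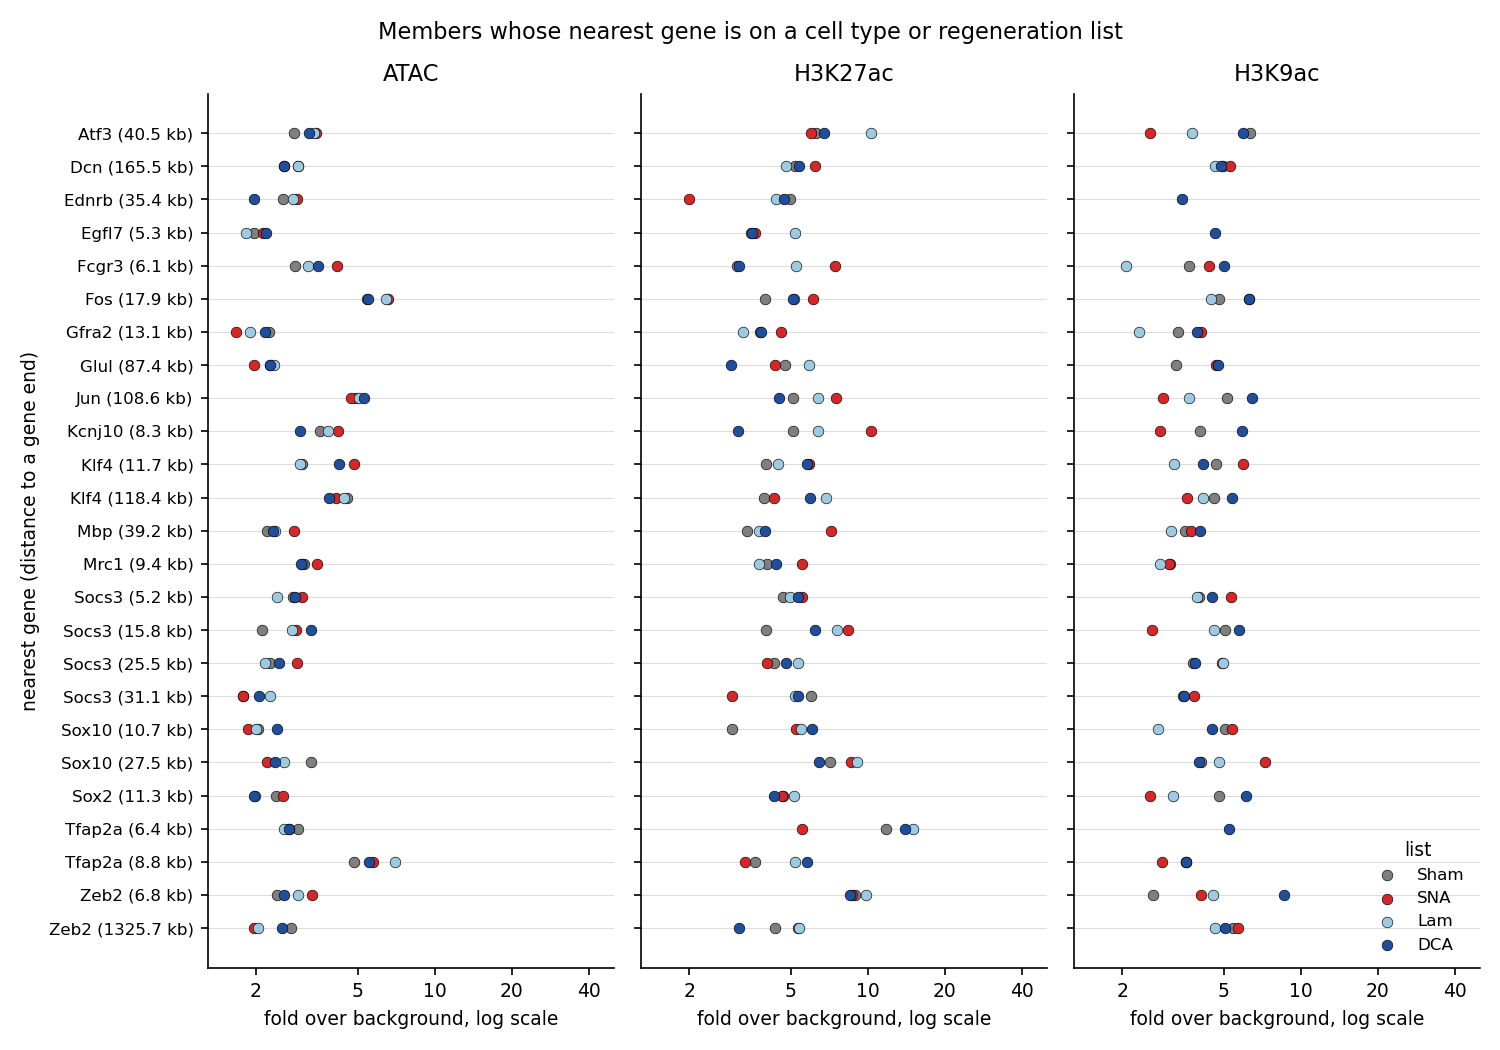
Folds over background (log scale) for 25 of the 26 members whose nearest gene is on a cell type or regeneration list, for ATAC, H3K27ac and H3K9ac; each point is 1 pooled list, and a missing H3K9ac point means no peak. The Tfap2a member at 6.4 kb has H3K27ac folds of 11.8 to 15.0 in Sham, Lam and DCA and 5.55 in SNA.

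The acetylation summits of members lay at all short distances from the ATAC summit. For H3K27ac, fewer lay under 100 bp than at 200 to 300 bp in SNA, Lam and DCA, but not in Sham. At gene-end sites this gap was present in all 4 lists and wider. Under 100 bp and at 200 to 300 bp, the H3K27ac shares of members were 13.7% and 13.5% in Sham and 13.4% and 17.2% in SNA. They were 11.8% and 14.7% in Lam and 12.8% and 14.2% in DCA. For H3K27ac, 11.8 to 13.7% of members had them under 100 bp apart and 13.5 to 17.2% had them 200 to 300 bp apart, whereas at gene-end sites these shares were 5.31 to 7.44% and 17.6 to 24.6%. The median distance from the strongest ATAC summit to the H3K27ac summit was 361.5 bp for the Sham list, with a 95% interval of the median from 345 to 377 bp. It was 327 (SNA), 371 (Lam) and 359 bp (DCA) for the other lists, and for H3K9ac 305, 328, 301 and 315 bp. The distance exceeded 150 bp, about the DNA that 1 nucleosome wraps, for 79.1 to 81.9% of members for H3K27ac and for 75.3 to 77.3% for H3K9ac. At gene-end sites these shares were higher, at 86.8 to 89.0% and 86.1 to 88.8%. At gene-end sites the median for H3K27ac was 381, 324, 340 and 351 bp, and fewer summits coincided: 4.69% lay within 75 bp in Sham, against 10.4% of members, and 3.602% against 10.6% in SNA. Several ATAC summits were found at 65.8 to 70.0% of members and at 81.9 to 84.6% of gene-end sites. The strongest ATAC summit of a member moved by a median of 205 bp over the 4 lists, against 65 bp at gene-end sites. A summit distance thus carries an error of the size of that movement.

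**Figure D5:**
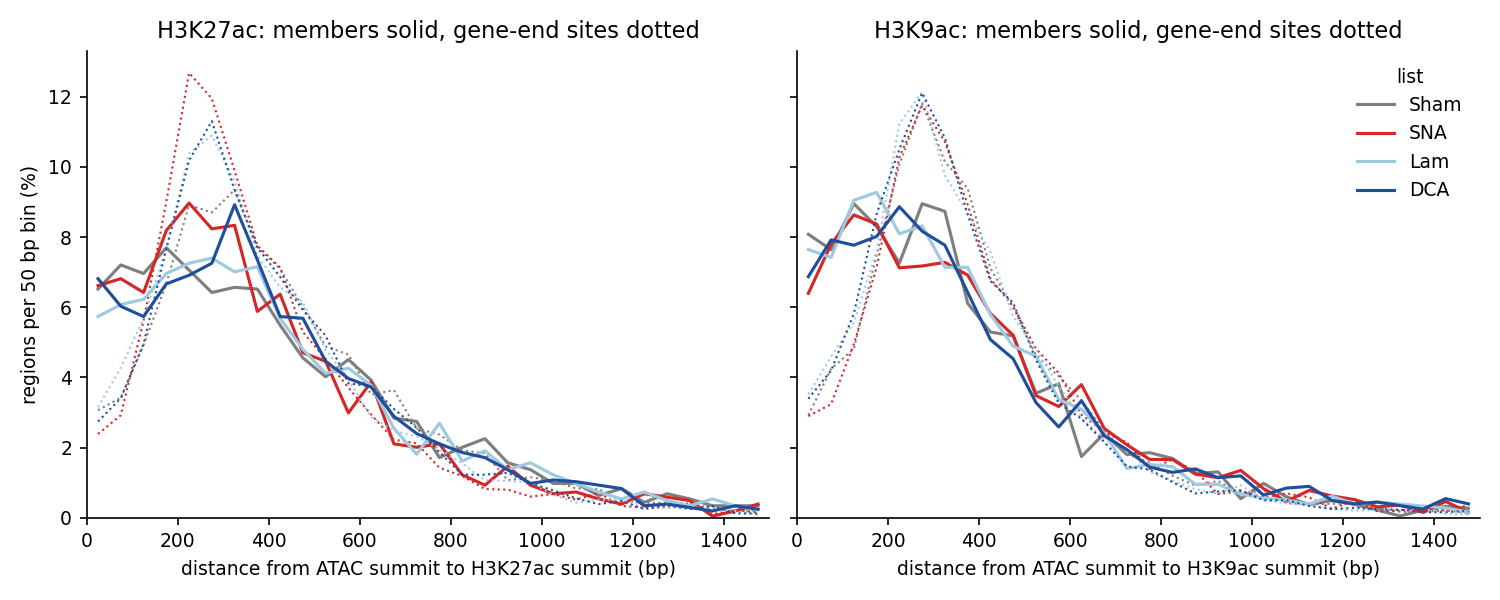
Distance in bp from the strongest ATAC summit to the H3K27ac (left) or H3K9ac (right) summit of the same surgery, as percent of regions in 50 bp bins; solid lines are members and dotted lines gene-end sites. Member summits spread more evenly over the first bins than those of gene-end sites, with 41.2 to 49.0% of them 100 to 400 bp away. Gene-end sites peak around 200 to 300 bp and have fewer summits near 0.

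Hairpins of 4 annotated microRNA genes lay in members. Mir199b and Gm23363 lay in a member nearest to Dnm1 at chr2:32317635-32319147, Mir7671 in one near Irf1 at chr11:53761843-53764185 and Mir7685 in one near D630003M21Rik at chr2:158242990-158244042.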

How the data were processed

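Peak lists were analysed as the authors deposited them. Replicates were pooled before peaks were called, per the labels, and the build was mm10, per the submitters' processing notes; the aligner and caller are not given in the sources used here. Per the file layout, the deposited narrow and broad lists give each peak's fold enrichment (a ratio over background) and its −log10 p and −log10 q. Lines that repeat an ATAC interval for further summits were joined. Regions and peaks overlapped at 1 bp or more. Where several peaks met a region, the one with the highest −log10 p gave its fold and summit. Genes came from RefSeq, GRCm38.p6, and no genome sequence was used here. The members and gene lists were chosen with earlier results of these data known. Named members followed a rule: the 12 with the highest lowest H3K27ac percentile, the clusters with most members (ties kept), the 10 genes with most members, list genes, 5 members for each injury with H3K9ac absent from its control, and those nearest the 5 kb limit. All marker genes of the lists matched the gene table. Members near 2 genes are not reported here. Overlap and distance routines were tested on simulated intervals. Shares have Wilson 95% intervals. Python 3.11.15, pandas 2.3.3, numpy 2.4.6 and scipy 1.17.1 were used.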

Additional observations from a re-analysis of the deposited data

How the results depend on the processing

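Of 59 recomputed values, 21 moved by less than their interval (counts by less than 1.5 times) and 38 by more. The number of members was 1571 beyond 10 kb, 1459 at q of at most 0.01, 1689 at equal list lengths and 2374 to 3057 when the lists of 1 surgery were left out, but 880 when peaks had to cover at least 0.5 of a region. That cover gave H3K9ac shares of 77.5% (Sham), 89.1% (SNA), 73.8% (Lam) and 96.8% (DCA). At q of at most 0.01 they were 65.7% in Sham, 85.5% in SNA and 79.0% in Lam, and at equal lengths 91.2%, 88.8%, 90.5% and 94.97%. For these shares, leaving out starts or the lists of 1 surgery was chosen after seeing the data. Without annotated starts the Lam share was 85.6%. With the ATAC and H3K27ac lists of Sham left out the 4 shares, in the order above, were 86.0%, 92.7%, 81.8% and 97.1%, with SNA left out 83.4%, 88.5%, 81.1% and 94.3%, with Lam left out 88.2%, 93.6%, 85.3% and 97.5%, and with DCA left out 86.3%, 92.4%, 81.9% and 97.3%. H3K27me3 at q of at most 0.05 covered 0.0490% of members in Sham and in Lam and 0% in SNA and in DCA. Gaps of 5 kb and 25 kb put 13.7% and 35.0% of members in clusters. From the first ATAC summit the median distance was 353 bp in SNA and 382 bp in DCA to H3K27ac, and 321 bp in Sham and 333 bp in DCA to H3K9ac. Nearest genes by gene end numbered 1446. The causes of the shifts were not tested, apart from those that fewer peaks bring by construction. No paired analysis was possible because each list pools its replicates.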
